A study of Rattus norvegicus with 12 samples.

Results

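Gstp1 encodes the pi class glutathione S-transferase (GSTP1, also known in the rat as GST-P), an enzyme that joins glutathione to electrophilic compounds. It was followed as 1 gene of 40154 in a table of liver transcripts, and was selected on its response to S-allylmercaptocysteine (SAMC), a water-soluble organosulfur compound of aged garlic. The values it was chosen by are those of libraries with SAMC against libraries without it, so its change with SAMC is described here without a test, while its change with diet was tested. The diet tests use the same estimate of spread between libraries, so the choice of a gene with a stable SAMC response may favour their p-values. Liver RNA of Sprague Dawley rats was sequenced in 4 groups of 3 libraries: a high fat diet with SAMC co-administration (HFD+SAMC), a high fat diet (HFD), a normal diet with SAMC co-administration (Control+SAMC) and a normal diet (Control). The labels give no dose, duration, diet composition, sex or age, and they do not say that the libraries of a group come from separate rats, so each p-value covers only how far these libraries scatter, which may be technical scatter.

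In the normal adult rat liver GST-P is known to be scarce in hepatocytes and to be present in bile duct cells, and it is the classical marker of preneoplastic foci in this species. The gene is a known target of Nrf2 (gene Nfe2l2), a factor that the sensor Keap1 holds back until electrophiles modify it, and of Jun and Fos, the proteins that form AP-1. Nrf2 pairs with small Maf proteins at antioxidant response elements, whose core resembles the AP-1 motif. Besides conjugating electrophiles, the GSTP1 protein is known to bind the stress kinase JNK.

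Gstp1 lies on the minus strand of chromosome 1, at 219291679 to 219294147 in the deposited table, whose genome build is not named. Upstream of it, at 219309593 to 219312240 on the same strand and 15445 bp away, lies RGD1307603, which RefSeq names Gstp3, another pi class gene. The region before the start of each gene is shown because these neighbours are of 1 class and their levels are set side by side in the results. Both windows come from RefSeq on build GRCr8, minus strand, with 250 bases before and 50 bases after the annotated start, at chr1:210769656-210769955 for Gstp1 and chr1:210787635-210787934 for Gstp3. Capitals mark matches to TGACTCA (the AP-1 motif), TGACNNNGC (the core of the antioxidant response element) and GGGGCGGGG (a GC box), searched on both strands.
Gstp1: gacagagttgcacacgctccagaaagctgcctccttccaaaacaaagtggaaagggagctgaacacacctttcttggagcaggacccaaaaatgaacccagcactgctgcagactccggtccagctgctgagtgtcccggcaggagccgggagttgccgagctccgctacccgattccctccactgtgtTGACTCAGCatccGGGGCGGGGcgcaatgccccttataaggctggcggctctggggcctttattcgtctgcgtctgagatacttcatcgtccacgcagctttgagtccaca
Gstp3: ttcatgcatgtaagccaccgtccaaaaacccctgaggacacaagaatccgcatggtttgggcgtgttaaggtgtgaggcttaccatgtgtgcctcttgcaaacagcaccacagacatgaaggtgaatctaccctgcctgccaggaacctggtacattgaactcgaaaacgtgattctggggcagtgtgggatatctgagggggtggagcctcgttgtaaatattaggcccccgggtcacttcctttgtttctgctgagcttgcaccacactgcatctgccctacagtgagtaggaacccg

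In the Gstp1 window, TGACTCA and TGACNNNGC matched at the same place, starting 61 bases before the annotated start, where they overlap as TGACTCAGC. The GC box began 48 bases before it. None of these motifs matched in the Gstp3 window. Of 33469 rat windows of this length, 4.63% held TGACTCA, 12.1% held TGACNNNGC, 9.73% held GGGGCGGGG and 0.415% (139) held the combined TGACTCAGC. A match is a description of letters and not a measured binding site, and the enhancer known as GPE1, further upstream of the rat gene, is not in the window.

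Gstp1 transcripts were more abundant in every SAMC library than in any library without SAMC. Levels are counts scaled to a library of 1e+06 (CPM), with library sizes scaled by TMM, the trimmed mean of M-values. On the high fat diet Gstp1 was at 36.2, 27.8 and 28.5 CPM in HFD+SAMC replicates 1, 2 and 3, against 11.8, 13.0 and 11.1 CPM in HFD replicates 2, 3 and 4. On the normal diet it was at 56.8, 52.0 and 53.7 CPM in Control+SAMC replicates 1, 2 and 3, against 14.4, 13.7 and 12.1 CPM in Control replicates 1, 2 and 3. The lowest of the 6 SAMC libraries (27.8 CPM) stood 1.93-fold above the highest of the libraries without SAMC (14.4 CPM), and neither diet showed overlap between them. These values rest on 538 to 2691 reads per library, and the lowest count has an exact 95% Poisson interval of 493.5 to 585.4, which covers counting error only. In bulk RNA, more cells with the transcript and more transcript per cell cannot be told apart.

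**Figure D1:**
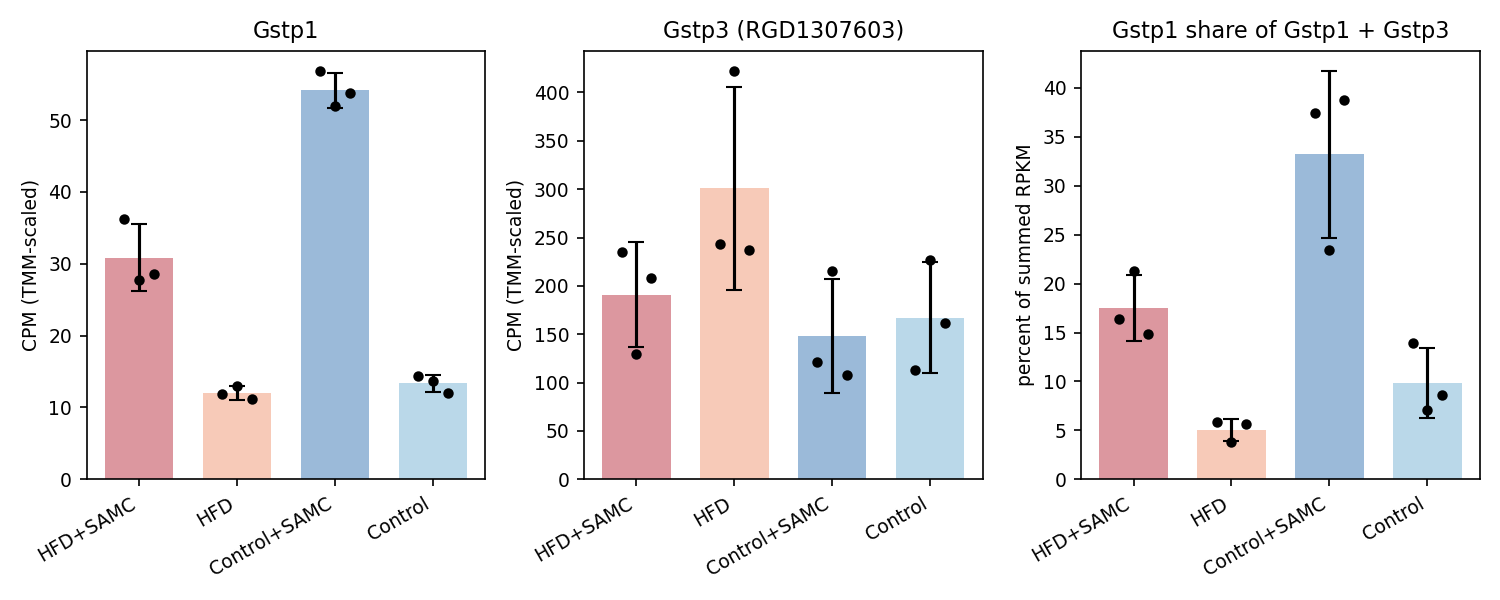
Gstp1 and Gstp3 in CPM, and the share of Gstp1 in the summed RPKM of both genes (percent), by group; bars are means, lines 1 SD, points the 3 libraries. Gstp1 was at 27.8 to 56.8 CPM in the 6 SAMC libraries and at 11.1 to 14.4 CPM in the other 6, while the Gstp3 libraries with and without SAMC overlapped on the normal diet.

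Ordered by mean, the groups were Control+SAMC (54.2 ± 2.5 CPM), HFD+SAMC (30.8 ± 4.7 CPM), Control (13.4 ± 1.2 CPM) and HFD (11.98 ± 0.946 CPM; SD, n = 3 each). The libraries of Control+SAMC and HFD+SAMC did not overlap, nor did those of HFD+SAMC and Control. HFD and Control overlapped, and their means differed by little more than the SD within a group. In the deposited RPKM, reads per gene length and library total, the means were 42.9 ± 6.9 in HFD+SAMC, 17.0 ± 2.6 in HFD, 68.7 ± 7.6 in Control+SAMC and 15.5 ± 2.3 in Control. On this unit, which is not TMM-scaled, HFD stood slightly above Control.

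SAMC against no SAMC, which chose the gene, gave a fold of 2.57 on the high fat diet (log2 1.36 ± 0.13, SE) and of 4.05 on the normal diet (2.02 ± 0.13). Averaged over the diets it was 3.23-fold (log2 1.69 ± 0.093), and it stayed between 3.08-fold and 3.31-fold when each of the 12 libraries was left out in turn. The 6 Control and HFD+SAMC libraries and the 6 HFD and Control+SAMC libraries form separate sets, since for 1 gene (RGD1562465) their RPKM rest on different gene lengths (3377 and 4432 bp). In the set with Control, Gstp1 was 2.30-fold higher in HFD+SAMC than in Control. In the set with HFD it was 4.52-fold higher in Control+SAMC than in HFD. Within each set SAMC and diet change together, so their parts in these folds cannot be told apart. HFD+SAMC replicate 3, which held 439.7 CPM of the muscle transcript Acta1 against at most 0.135 CPM elsewhere, had Gstp1 at 28.5 CPM, and without it the log2 fold change on the high fat diet was 1.42.

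Set beside other genes, Gstp1 joined a large fold with SAMC to a small spread between replicates. It was chosen on these same SAMC values, so its ranks describe it and nothing more is read from them. Among 10896 genes whose mean log2 CPM was 1 or more, it ranked 16 by log2 fold change for SAMC averaged over diet, 19 on the normal diet and 52 on the high fat diet. Its SD within groups was 0.140 on the log2 CPM scale, against a median of 0.231 over these genes, and 15.8% of them had a smaller one. A measure that joins size and spread is the gap between the lowest SAMC library and the highest library without SAMC. For Gstp1 this gap was 2.14-fold on the high fat diet and 3.60-fold on the normal diet, and the smaller of the pair ranked 3, after the aldehyde-reducing enzymes Akr7a3 (3.54-fold) and Akr1b8 (2.42-fold). Gsta3 (2.09-fold) and Gstm1 (1.94-fold), glutathione S-transferases of other classes, followed. In all 136 genes (1.25%) had a positive gap in both diets, and 4 had one of at least 2-fold. For 119 genes every SAMC library was instead the lower on both diets.

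**Figure D2:**
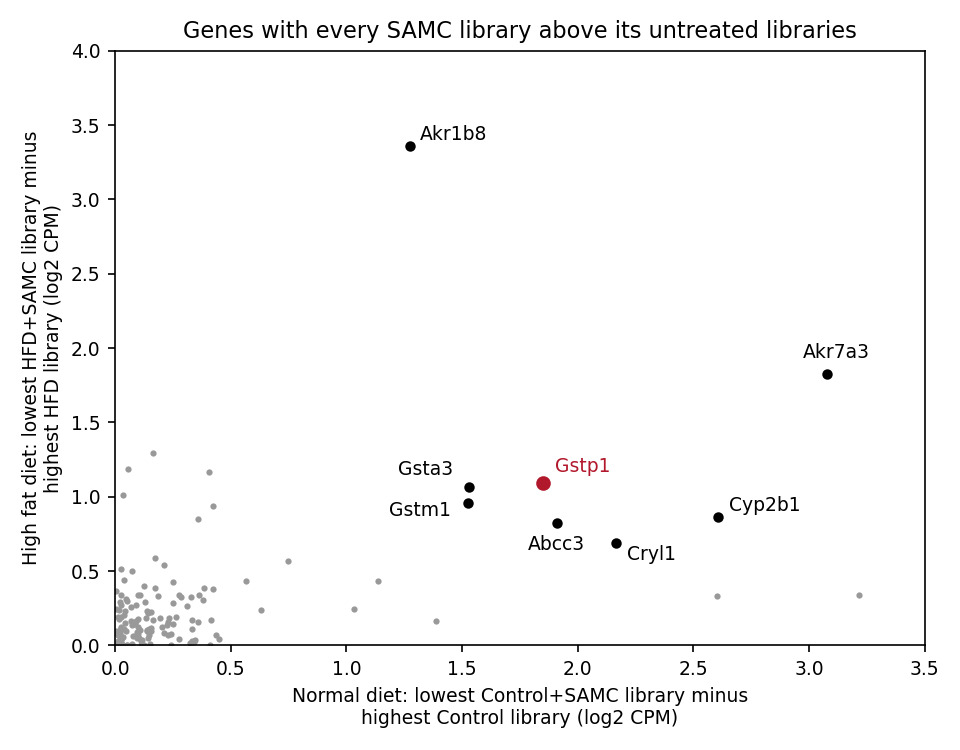
Each point is 1 of the 136 genes for which every SAMC library lay above every library without SAMC on both diets; the axes give the gap in log2 CPM on the normal diet (x) and on the high fat diet (y). Gstp1 (red) lies at 1.85 and 1.09, with Akr7a3, Akr1b8, Gsta3, Gstm1, Cyp2b1, Abcc3 and Cryl1 as the other labelled genes.

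Over all 15916 genes tested, 35 (0.22%) passed an adjusted p of 0.05 for SAMC averaged over diet (edgeR's quasi-likelihood test, Benjamini-Hochberg), 26 higher (0.163%) and 9 lower. Gstp1 is one of the 26, and one of 11 that passed whichever library was left out, but both were known when it was chosen, so nothing is read from them. Among the called genes with a mean log2 CPM of 1 or more and an established symbol, the 10 with the largest rises were Akr1b8 (22.5-fold), Akr7a3 (8.52-fold), the cytochromes P450 Cyp2b1 and Cyp2b2, the glucuronosyltransferase Ugt1a6 (5.10-fold), the conjugate exporter Abcc3, Gsta3 (4.00-fold), the epoxide hydrolase Ephx1, Gstm1 (3.28-fold) and Gstp1 itself. Akr1b8, with a larger fold than Gstp1, ran from 23.8 to 51.2 CPM in HFD+SAMC and from 1.38 to 2.29 CPM in HFD. In Control+SAMC it was at 47.5, 4.06 and 41.6 CPM, against 0.857 to 1.66 CPM in Control, so Control+SAMC replicate 2 was far below the other Control+SAMC libraries, while the Gstp1 level in them ran from 52.0 to 56.8 CPM.

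The high fat diet was tested on Gstp1 with and without SAMC. All groups share 1 estimate of the spread, so the choice of the gene may make these p-values too small. Without SAMC, HFD against Control had a log2 fold change of −0.16 ± 0.13 (SE; adjusted p = 0.708, edgeR), and its 95% interval runs from 0.736-fold to 1.09-fold. Of the genes tested, 23 (0.145%) passed here. With SAMC, HFD+SAMC was lower than Control+SAMC in all 3 libraries, at 30.8 against 54.2 CPM on average, with a log2 fold change of −0.81 ± 0.13 (0.569-fold, 95% interval 0.470 to 0.691). This missed the threshold over all genes (adjusted p = 0.0527, edgeR), where 10 of 15916 genes (0.0628%) passed. Averaged over SAMC, which balances the library sets, Gstp1 fell with the high fat diet by 0.49 ± 0.091 on the log2 scale (0.714-fold, adjusted p = 0.0442, edgeR), as 1 of 29 genes that fell (0.182%) and of 67 that passed (0.421%). That call lay near the threshold: leaving out any library but HFD+SAMC replicate 1 moved its adjusted p (edgeR) to between 0.057 and 0.13, and with libraries scaled by their totals alone the log2 fold change was −0.27 (adjusted p = 0.193, edgeR).

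The fold of SAMC was smaller on the high fat diet than on the normal diet, by a log2 difference of −0.65 ± 0.18 (interaction of diet and SAMC, adjusted p = 0.375 and unadjusted p = 0.00364, edgeR's quasi-likelihood test), so the difference did not pass over all genes, of which 23 (0.145%) did. This interaction sets HFD+SAMC and Control against HFD and Control+SAMC, which are the library sets, so the set and the interaction cannot be told apart. Of the 26 genes called higher with SAMC, 20 had the larger fold on the normal diet and 6 on the high fat diet. Of the 9 called lower, 4 had the larger fall on the normal diet. Over all tested genes the median log2 of the interaction was 0.0154. The share of all genes with the larger fold on the normal diet was not counted, so no general pattern is read from these counts. Akr7a3 was 4.26-fold higher with SAMC on the high fat diet and 17.0-fold on the normal diet, and Ugt1a6 2.60-fold and 9.98-fold.

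**Figure D3:**
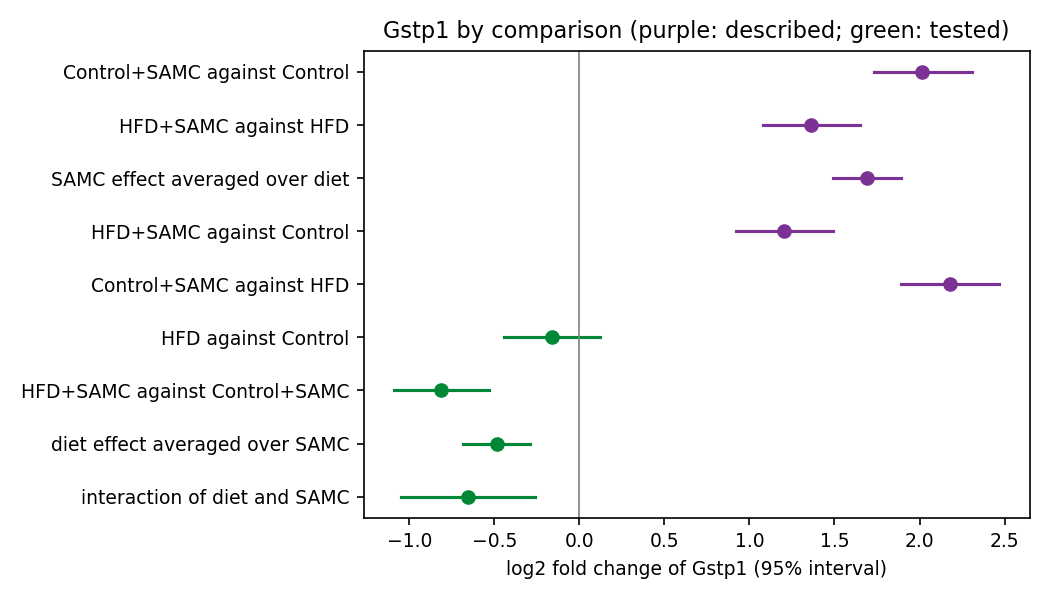
Log2 fold change of Gstp1 (points) with 95% intervals (lines) in 9 comparisons; purple ones hold the SAMC difference that chose the gene and are described only, green ones were tested. The interval of HFD against Control spans 0, and that of HFD+SAMC against Control+SAMC runs from −1.09 to −0.53.

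Gstp3 was not called for SAMC or diet, and its difference from Gstp1 in response was not tested. It was at 234.8, 130.0 and 207.9 CPM in HFD+SAMC replicates 1, 2 and 3, against 243.5, 422.0 and 236.6 CPM in HFD replicates 2, 3 and 4. In Control+SAMC replicates 1, 2 and 3 it was at 120.8, 215.7 and 107.7 CPM, against 112.9, 226.9 and 161.9 CPM in Control replicates 1, 2 and 3. The SAMC and untreated libraries overlapped on the normal diet, and on the high fat diet the HFD+SAMC ones were the lower. The log2 fold change was −0.42 ± 0.25 for SAMC averaged over diet (adjusted p = 0.530) and 0.61 ± 0.25 for the high fat diet averaged over SAMC (adjusted p = 0.313, both edgeR), so neither passed.

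Per length, Gstp3 was the more abundant of the pair in every library. Gstp1 made up 14.8 to 21.3% of their summed RPKM in HFD+SAMC, 3.76 to 5.81% in HFD, 23.4 to 38.8% in Control+SAMC and 7.10 to 13.9% in Control. The other 5 of the 7 pi class rows are 4 rows marked as pseudogenes and LOC100911464, marked as protein coding. LOC681261 (Gstp1-ps3 in RefSeq) had 1 to 29 reads per library and was not called, LOC108348395 had 2 reads in all, and LOC688229, RGD1559602 and LOC100911464 had 0. Reads that match several copies can be lost or split in counting per gene, so the Gstp1 level is uncertain to that extent.

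The other genes next to Gstp1 on the chromosome did not pass either. For SAMC averaged over diet the log2 fold change was −0.17 for the nudix hydrolase Nudt8, 0.35 for Doc2g, −0.02 for the complex I subunit Ndufv1, −0.49 for the calcium-binding protein Cabp2 and 0.10 for Cdk2ap2, with adjusted p from 0.371 to 0.938 (edgeR). Across the glutathione S-transferases of other classes, 2 of 22 measured genes rose with SAMC and 0 fell, against 0.163% of all genes called higher. Their median log2 fold change was 0.38 against −0.0047 over all genes. The alpha class Gsta3 rose by 2.00 ± 0.22 (adjusted p = 0.00498) and the mu class Gstm1 by 1.71 ± 0.17 (adjusted p = 0.0021, edgeR), both also called on the normal diet, where 19 genes (0.119%) passed, and neither on the high fat diet, where 8 (0.0503%) did. On the normal diet both calls ended without Control replicate 1, 2 or 3, with adjusted p (edgeR) of 0.0713, 0.0771 and 0.161 for Gsta3 and of 0.0634, 0.0571 and 0.148 for Gstm1, and whether the diets differ is not shown by these calls. The theta class Gstt3 stood at 1.94 ± 0.34 and missed narrowly (adjusted p = 0.054, edgeR). The mitochondrial Gstk1 and the zeta class Gstz1 were at −0.04 and −0.23. Alpha and mu class genes have close copies, so their levels are uncertain.

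**Figure D4:**
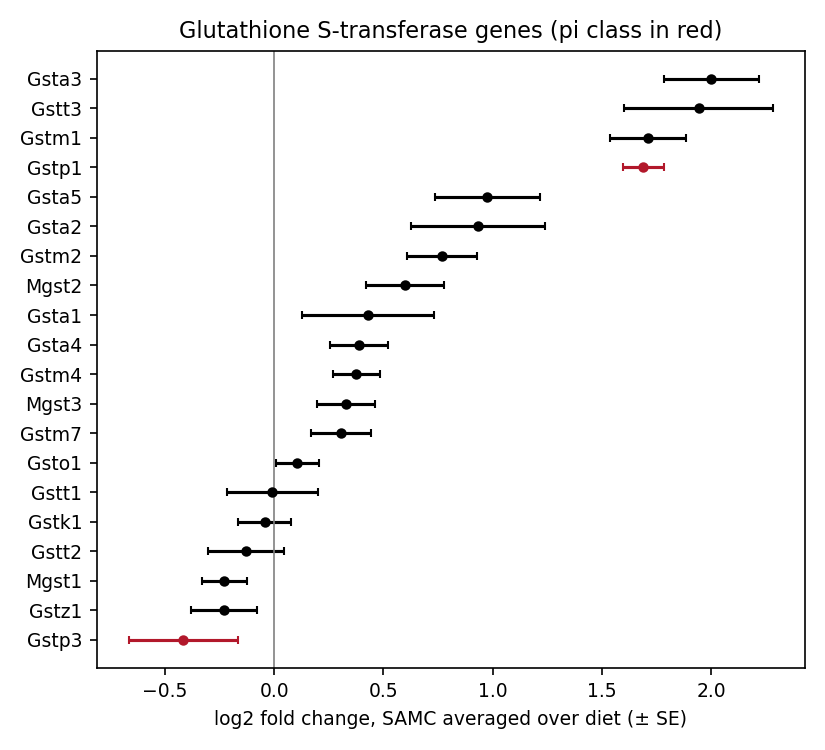
Log2 fold change of SAMC averaged over diet (points, with SE as lines) for 20 glutathione S-transferase genes, pi class in red. Gstp1 is at 1.69 with a short error bar, beside Gsta3 (2.00), Gstt3 (1.94) and Gstm1 (1.71), and Gstp3 lies lowest of those shown at −0.42. Gstm3, Gstm6 and Gsto2 were measured but are not plotted. Of them, Gstm3 had a mean of 8.129 RPKM in HFD+SAMC and 1.491 RPKM in HFD. On the normal diet it was at 0.493 RPKM in Control+SAMC and 0.1422 RPKM in Control.

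Even with SAMC, Gstp1 was a minor glutathione S-transferase transcript by length-scaled level. Among 20 soluble glutathione S-transferase genes ordered by mean RPKM it was number 12 in HFD+SAMC, 16 in HFD, 12 in Control+SAMC and 13 in Control. Gstm1 was at 1018 RPKM in HFD+SAMC, 374.1 RPKM in HFD and 965.9 RPKM in Control+SAMC, the highest of the 20 in each, and at 224.3 RPKM in Control, where Gsta5 was higher at 233.2 RPKM.

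The genes whose levels over the 12 libraries were most like those of Gstp1, by Pearson correlation of log2 CPM, were led by Gsta3 (r = 0.94), Akr7a3 (0.94), the mitochondrial ribosomal protein gene Mrps27 (0.93), Ugt1a6 (0.91) and the deubiquitinase gene Usp24 (0.91). Gda, a guanine deaminase, Gsr, the glutathione reductase, Pcyox1, Plekhb2 and Arl15 followed, at 0.89 to 0.88. The most opposite were Spp2 (−0.92), Bloc1s1 (−0.92), Tmem125, Mbtps1, the protease that activates sterol regulatory proteins, and the beta-catenin gene Ctnnb1 (−0.89). These coefficients describe 12 libraries that share the 4 group means, and over 10895 genes the median was near 0, at 0.0048. Gsta3, Akr7a3 and Mrps27 were among the nearest 10 in 15 of 16 settings tried and Arl15 in 5, and with Spearman's rank correlation 2 of the 10 remained.

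**Figure D5:**
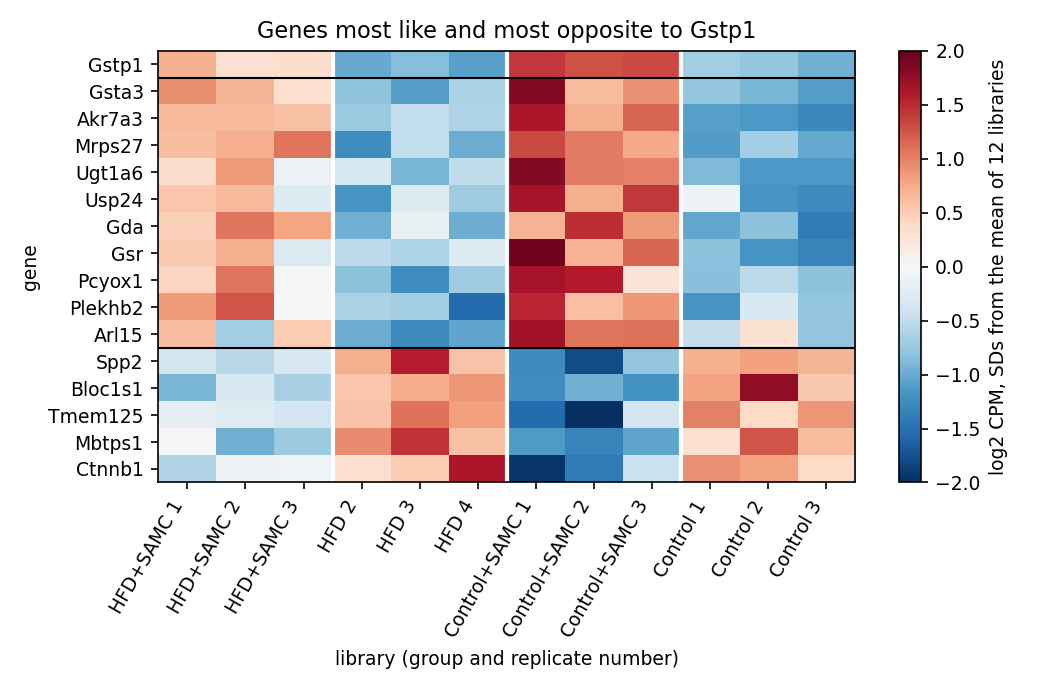
Levels of Gstp1 (top), the 10 most alike and the 5 most opposite genes in each library, as SDs from that gene's mean log2 CPM over the 12 libraries (red higher, blue lower). By group mean, Gstp1, Gsta3 and Akr7a3 are highest in Control+SAMC, next in HFD+SAMC, and low in HFD and Control. The Gsta3 libraries of Control+SAMC (92.35 to 232 CPM) and HFD+SAMC (74.61 to 115.5 CPM) overlap.

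Size differed widely within this group. Mrps27 was at 24.6 to 27.8 CPM in HFD+SAMC and 14.9 to 18.2 CPM in HFD, and at 25.6 to 29.8 CPM in Control+SAMC and 15.4 to 17.3 CPM in Control, a 1.65-fold rise averaged over diet (adjusted p = 0.00498, edgeR). Usp24 had a log2 fold change of only 0.19 ± 0.074 (adjusted p = 0.321, edgeR). Of the 8 most alike genes with a RefSeq window, 1 (Gsta3) held TGACNNNGC and none held TGACTCA. Of the 26 genes called higher with SAMC, 20 had a window. Of these windows 1 held TGACTCA (Gstp1) and 4 held TGACNNNGC (Gstp1, Gsta3, Slc15a1 and Tprg1l). Over all 33469 rat windows the shares were 4.63% for TGACTCA and 12.1% for TGACNNNGC, and a difference from these shares was not tested.

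Transcripts of the factors known to act on the rat Gstp1 gene were not called. Of 20 measured regulators, 0 rose and 0 fell with SAMC averaged over diet, and their median log2 fold change was −0.041. Only 0.22% of all tested genes were called either way, so 0 calls in a list this short says little. Nfe2l2 was at 123.5 to 148.3 CPM in HFD+SAMC, 132.5 to 177.9 CPM in HFD, 115.7 to 148.5 CPM in Control+SAMC and 125.6 to 172.6 CPM in Control, with overlap on both diets. Its log2 fold change was −0.20 ± 0.11 (adjusted p = 0.501, edgeR). For the repressor Keap1 it was −0.08, for Jun −0.16 and for Cebpa, whose protein is known to bind a silencer of the rat gene, −0.02. Transcript levels do not measure the activity of these proteins. Of 12 genes for binding partners of the GSTP1 protein, 0 were called either way (median 0.034), against 0.22% of all tested genes. Mapk8, which encodes a form of JNK itself, was at −0.14 ± 0.11 and Traf2 at −0.06. Prdx6, a peroxidase that GSTP1 is known to recharge, was at 0.20 ± 0.093.

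With SAMC averaged over diet, 0.163% of all tested genes were called higher. Genes that make and recycle glutathione had 2 of 15 measured members higher with SAMC and 0 lower (median log2 0.33). Among them Gsr rose by 0.66 ± 0.10 (adjusted p = 0.0272, edgeR), with 73.7 to 97.6 CPM in HFD+SAMC and 66.9 to 74.0 CPM in HFD, and 97.2 to 137.7 CPM in Control+SAMC and 54.8 to 63.1 CPM in Control. That call ended without Control replicate 3, Control+SAMC replicate 1, HFD replicate 2, 3 or 4, or HFD+SAMC replicate 1 or 2 (adjusted p from 0.0511 to 0.111, edgeR), and with a replicate block (0.0652). Of 16 genes of conjugate export and the mercapturate pathway 1 rose, Abcc3, by 2.35 ± 0.27 (adjusted p = 0.00725, edgeR), and 0 fell (median log2 0.12). The exporter ran from 28.7 to 58.8 CPM in HFD+SAMC, 12.2 to 16.2 CPM in HFD, 19.8 to 57.2 CPM in Control+SAMC and 3.34 to 5.24 CPM in Control.

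Of 10 measured genes known beside GST-P in preneoplastic foci of the rat, 6 rose with SAMC and 0 fell, with a median log2 fold change of 1.52. Over all tested genes 0.163% were called higher. The list was drawn up with earlier results of these samples known and is no independent evidence of a direction. Among the 6 are Akr1b8, Akr7a3, Abcc3, Ephx1 and the aldehyde dehydrogenase Aldh1a1 (1.25 ± 0.18, adjusted p = 0.0174, edgeR), and most of these are also known targets of Nrf2 or of xenobiotic receptors. The Ephx1 call ended in 10 of the 12 fits without 1 library, all but those without Control+SAMC replicates 2 and 3 (adjusted p from 0.0504 to 0.111, edgeR), the Akr1b8 call without Control replicate 3 or HFD replicate 2, 3 or 4 (0.0504 to 0.0871), and the Aldh1a1 call without Control replicate 3 (0.0794). With a replicate block the Abcc3 call ended too (adjusted p = 0.0599, edgeR). The gamma-glutamyltransferase Ggt1 was at 4.28, 3.34 and 3.14 CPM in HFD+SAMC, 0.369, 0.906 and 0.225 CPM in HFD, 2.53, 4.23 and 2.94 CPM in Control+SAMC and 1.92, 0.294 and 0.269 CPM in Control. Every SAMC library was the higher on its diet, at a log2 fold change of 2.38 ± 0.50 that missed the threshold (adjusted p = 0.0805, edgeR). The fetal and tumour markers Afp and Gpc3 were at −0.08 ± 0.28 and −0.21 ± 0.45, and Nqo1 was at 0.76 ± 0.24 (adjusted p = 0.245, edgeR).

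Bile duct cells are a known site of Gstp1 in the rat liver, so their markers are given beside it. The summed level of 10 cholangiocyte markers was 71.8 to 86.6 CPM in HFD+SAMC, 52.4 to 70.2 CPM in HFD, 70.0 to 98.4 CPM in Control+SAMC and 103.1 to 125.3 CPM in Control. None of the markers was at 0 throughout. Of 9 tested, 0 were called for SAMC averaged over diet (median log2 0.29), and Prom1 fell with the high fat diet by 2.35 on the log2 scale (adjusted p = 0.00147, edgeR). Over all tested genes 0.22% were called for SAMC averaged over diet and 0.421% for diet averaged over SAMC. The defining keratin Krt19 was at 3.35 to 4.36 CPM in HFD+SAMC, 2.15 to 3.70 CPM in HFD, 4.41 to 5.30 CPM in Control+SAMC and 1.503 to 3.525 CPM in Control, and Epcam had a log2 fold change of 0.97 ± 0.21 with SAMC (adjusted p = 0.0805, edgeR). Their part in the Gstp1 difference was not tested.

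Markers of other cells were called for SAMC in 1 case. Only 0.22% of all tested genes were called, so 0 calls in a short marker list says little. Among 5 endothelial markers Clec4g fell by 0.74 on the log2 scale (adjusted p = 0.0297, edgeR; list median 0.021). This call ended in 9 of the 12 fits without 1 library, all but those without Control replicate 2 and Control+SAMC replicates 1 and 2 (adjusted p from 0.0536 to 0.102, edgeR), and with library totals only (0.0857) or a replicate block (0.0923). Hepatocyte (0 of 8, median −0.22), Kupffer cell (0 of 9, −0.069), stellate cell (0 of 6, 0.027), T and NK cell (0 of 4, −0.67), erythroid (0 of 5, 0.22) and skeletal muscle markers (0 of 2, 2.42, from HFD+SAMC replicate 3) had no called member. Alb, the defining hepatocyte transcript, took 7.32 to 21.8% of counts per library.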

How the data were processed

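RNA of 12 rat liver samples was sequenced, with 3 libraries in each of 4 groups. Reads were trimmed with Trimmomatic 0.36, aligned with HISAT2 and counted per gene with HTSeq, per the submitters' processing notes; the sources used here do not give the genome build, annotation release or strand setting. The deposited table gives raw counts and RPKM, which the authors made per library without pooling replicates; the RPKM equalled count per listed length and total within a relative tolerance of 1e-06 for all but 1 gene. Gene lengths are in bases, per the file headers.

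Totals ran from 45680738 to 61937544 counts. Of 40154 genes, 14180 had no count and 15916 passed edgeR's filterByExpr and were tested; they hold 99.96% of counts. Counts were scaled by TMM and fitted over all 4 groups without covariates in edgeR 4.0.16 (R 4.3.3) with the quasi-likelihood test, Benjamini-Hochberg adjustment over all tested genes and a threshold of 0.05. Residual degrees of freedom were 8 and the biological coefficient of variation was 0.299. Log2 CPM used a prior count of 2. Libraries of a group differed by more than sampling noise (chi-square per degree of freedom 68.1 to 489). The script was tested on simulated data. Alternatives were DESeq2 1.42.0, limma-voom (limma 3.58.1), other scalings, no filter, a replicate block, the compared groups alone and leaving out each library.

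Named genes were Gstp1, the 10 most and 5 least correlated genes, the 10 largest called rises with SAMC, the 3 tested neighbours on each side, the pi class rows, and list members that were called or had the lowest p, up to 4 a list; other list members were named after their values were seen. Some list members that enter the counts are not reported here by name. The gene and the lists were chosen with earlier results of these data known. Of the table's genes, 29159 matched the GRCr8 RefSeq table by Entrez number.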

Additional observations from a re-analysis of the deposited data

How the results depend on the processing

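The Gstp1 difference with SAMC kept its direction under all alternatives run. With library totals only, which moved the median of all genes by 0.288 (HFD against Control) and 0.216 (diet averaged), the log2 fold change of Gstp1 was 0.14 for HFD against Control (reversed, adjusted p = 0.664), −0.27 for diet averaged over SAMC, 1.47 for HFD+SAMC against Control and 2.01 for Control+SAMC against HFD; genes called were 136 for HFD against Control, 5 for HFD+SAMC against Control+SAMC and 573 for diet averaged, and list members 6 (diet averaged) and 0 (HFD+SAMC against HFD). For HFD+SAMC against Control+SAMC, Gstp1 passed with no filter (−0.81, adjusted p = 0.0397), DESeq2 (−0.82, 2.55e-05) and limma-voom (−0.82, 0.0325). For diet averaged it missed with no filter (−0.49, 0.054), limma-voom (−0.49, 0.0577) and the replicate block (−0.43, 0.0979).

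Genes called in HFD against Control, HFD+SAMC against Control+SAMC, diet averaged, the interaction, Control+SAMC against Control, HFD+SAMC against HFD and SAMC averaged were 308, 272, 538, 128, 220, 246 and 436 by DESeq2, and list members 8 (diet averaged), 20 (Control+SAMC against Control), 12 (HFD+SAMC against HFD) and 21 (SAMC averaged). With no filter, HFD+SAMC against Control+SAMC gave 21 genes, HFD+SAMC against HFD 19 (2 list members) and SAMC averaged 67. With limma-voom the interaction gave 15 and HFD+SAMC against HFD 14 (2 list members). With the groups compared alone the counts were 4 (HFD against Control), 44 (HFD+SAMC against Control+SAMC), 5 with 1 list member (Control+SAMC against Control) and 23 with 3 (HFD+SAMC against HFD). With the replicate block they were 2 (HFD+SAMC against Control+SAMC), 9 (interaction), 6 with 2 list members (Control+SAMC against Control) and 10 with 3 (SAMC averaged), and 0 list members for HFD+SAMC against HFD. Replicate numbers did not pair samples: of 15 same-numbered pairs, correlations ran from −0.221 to 0.248 and 2 exceeded 0.1, and a library correlated best with its own number in 8 of 30 cases. Spearman's correlation kept 2 of the 10 nearest genes. The causes were not tested.

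Leaving out 1 library at a time, Gstp1 ran from −0.94 to −0.74 for HFD+SAMC against Control+SAMC, which passed without Control replicate 1 or 2 (adjusted p from 0.0373), and from −0.55 to −0.45 for diet averaged. Genes called ran from 4 (without Control replicate 3) to 53 (HFD against Control), 1 to 45 (HFD+SAMC against Control+SAMC), 30 to 130 (diet averaged), 7 to 19 (interaction), 3 to 23 (Control+SAMC against Control), 1 to 27 (HFD+SAMC against HFD) and 13 (without Control replicate 3) to 68 (without Control replicate 2; SAMC averaged). List members ran from 1 to 2 (diet averaged), 1 to 8 (Control+SAMC against Control), 0 to 2 (HFD+SAMC against HFD) and 4 to 11 (SAMC averaged), and nearest genes kept from 4 to 9.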

Other observations

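The enzymes that limit glutathione synthesis varied within Control+SAMC where Gstp1 did not. Gclc, the catalytic subunit of glutamate-cysteine ligase, was at 449, 341 and 134 CPM in Control+SAMC replicates 1, 2 and 3, against 111, 114 and 172 CPM in Control, and Gclm, its modifier subunit, at 141, 90.2 and 45.4 CPM against 33.3, 39.1 and 33.4 CPM. Gstp1 was at 56.8, 52.0 and 53.7 CPM in those Control+SAMC libraries. The order of the Control+SAMC libraries thus differed between genes, and these genes were chosen after their values were seen.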
